A study of Mus musculus with 10 samples.

Results

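Basement membranes are thin sheets of matrix that line endothelium and epithelium and wrap muscle fibres, nerve and fat cells. Here 31 genes for their components were followed in the Achilles tendon of mice with a tamoxifen-induced knockout of Mkx. They were taken by gene symbol, and all 31 were found among the 32285 genes of the count table. They comprise the 6 collagen IV chains, collagens XV and XVIII, 10 laminin chains, 2 nidogens, the heparan sulfate proteoglycans perlecan and agrin, dystroglycan, and 8 linked proteins. Laminin trimers, each of an alpha, a beta and a gamma chain, bind cell receptors and assemble into a first network. Collagen IV trimers form a second, cross-linked network, and nidogens and perlecan tie both together. In tendon, such sheets surround vessels, nerves and muscle fibres at the muscle end and cover the tendon surface, while tendon cells themselves sit in a collagen I matrix.

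Mohawk, the product of Mkx, is a homeodomain regulator of gene expression in tendon cells. All mice received tamoxifen at 20 mg/kg when 6 weeks old, and tendons were collected 4 weeks later. Mkx-CreER/flox mice, with 3 libraries, carried an Mkx-CreER allele, for a Cre recombinase activated by tamoxifen, and a floxed Mkx allele. Mkx-CreER/+ mice, with 3 libraries, had the Cre allele alone, and Mkx-flox/+ mice, with 4, had the floxed allele alone. The titles write the floxed control without the plus sign, so its number of floxed copies is not settled. Nor do the labels say whether inserting Cre leaves that copy of Mkx working. The name of the Cre allele points to Mkx as its driver, which the labels do not spell out, and cells without active Cre keep the floxed copy. Nothing in the labels states that each library is a separate animal, so p-values measure the spread between these libraries, which may be technical. Libraries are numbered as in the count table.

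Total RNA was sequenced by RamDA-seq, a protocol developed for very small samples, to between 8680934 and 22656417 counts per library. Within a gene, levels are given as CPM, which is scaled for library size by TMM. Between genes they are given as TPM, which also divides by exon length. Mkx lay at 26.1 to 32.4 CPM in Mkx-CreER/flox, at 91.4 to 93.8 CPM in Mkx-CreER/+ and at 121 to 187 CPM in Mkx-flox/+. All 10 tendon cell markers of the labelled tissue were present, with a summed level of 28262 to 37992 CPM in Mkx-CreER/flox, 46775 to 60042 CPM in Mkx-CreER/+ and 75109 to 136548 CPM in Mkx-flox/+. Library Mkx-CreER/flox 1 stood apart, with a mitochondrial share of 8.85% and a first principal component of 84.6, where the other 2 of its group had 36.9 and 23.5 and the highest control 15.6. The 21 skeletal muscle markers summed to 72737 to 143718 CPM in Mkx-CreER/flox, 31001 to 83806 CPM in Mkx-CreER/+ and 17321 to 57722 CPM in Mkx-flox/+. In a bulk sample, fewer cells of a type and less RNA per cell cannot be told apart.

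Of the 31 genes, 30 passed the filter on low counts, and Lama1, the alpha chain of early embryos, had 0 counts in each of the 10 libraries. Per length, the tendon's basement membrane RNA was carried by a small set of chains. The highest means over the 10 libraries were 347 TPM for Lamb2, 175 TPM for Nid1, 164 TPM for Lamc1, 159 TPM for Dag1 and 143 TPM for Hspg2. Col15a1 followed at 111 TPM and Col4a1 at 102 TPM. The lowest measured were Col4a6 at 0.353 TPM, Col4a3 at 1.29 TPM and Lamb3 at 1.58 TPM. Lamb3 and Lama3 encode chains of the laminin of epidermis, a tissue whose 10 markers summed to 13.5 to 24.3 CPM in Mkx-CreER/flox, 19.2 to 42.2 CPM in Mkx-CreER/+ and 19.0 to 30.7 CPM in Mkx-flox/+. Of these 4 passed the filter, and Krt5, Krt14, Krt15 and Dsg3 had 0 counts in every library. Among the 4 tested, 1 was called lower against both controls and 1 against Mkx-flox/+, beside 1.62% and 2.9% of all genes. Against Mkx-CreER/+ 0 of the 4 were called, beside 0.00624% of all genes. The most abundant collagen IV chain, laminin alpha, beta and gamma chain and nidogen were the same genes in all 3 genotypes by group mean. Single libraries differed, with more Lama4 than Lama2 in Mkx-flox/+ 1 and 3 and more Col4a2 than Col4a1 in Mkx-flox/+ 2.

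**Figure D1:**
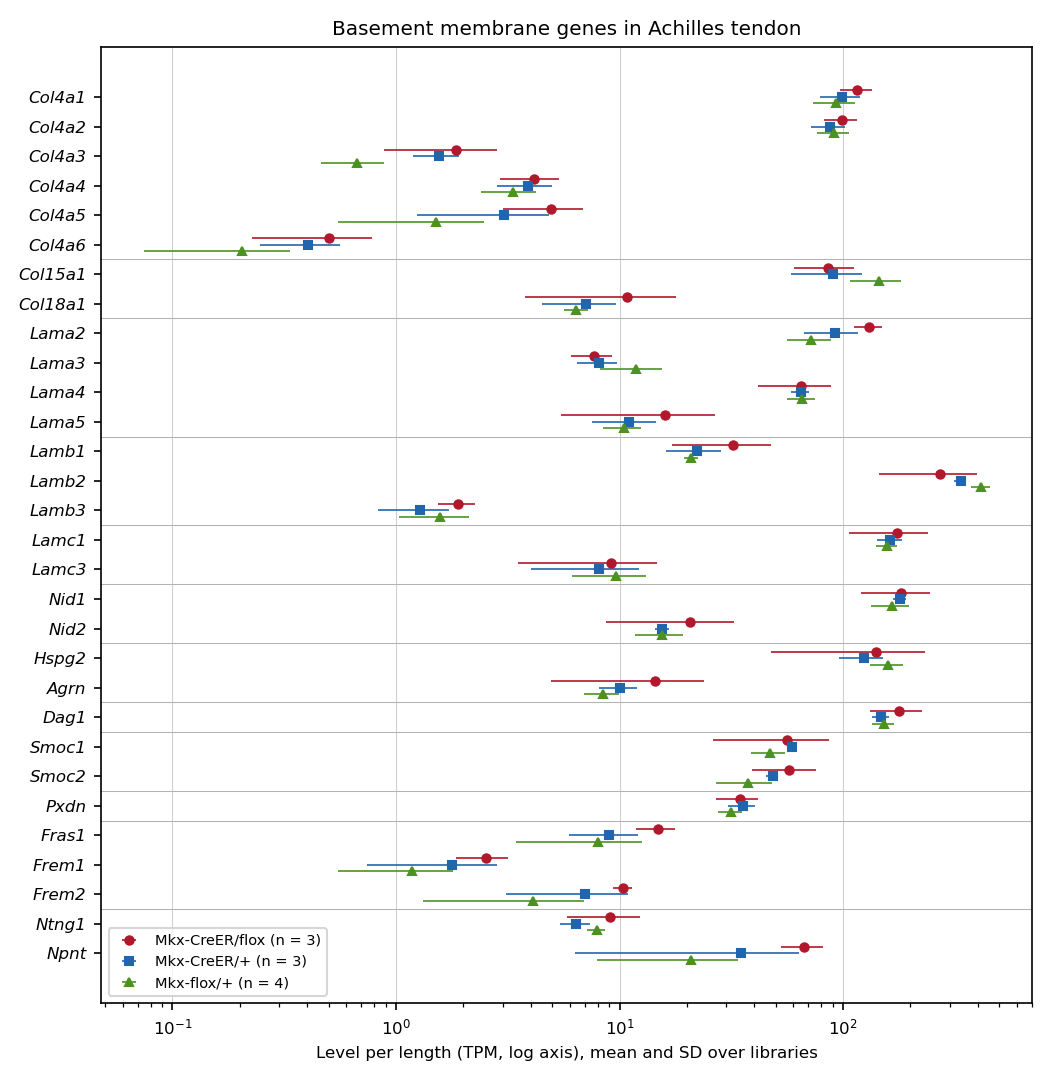
Level per length (TPM, log axis) of the 30 genes with counts, by role from collagen IV at the top to nephronectin at the bottom, as mean and SD over the libraries of each genotype. Lamb2 is the highest, at 271 TPM in Mkx-CreER/flox, 336 TPM in Mkx-CreER/+ and 413 TPM in Mkx-flox/+, and the Mkx-CreER/flox bars are often the widest.

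Most basement membrane genes had somewhat higher mean levels in Mkx-CreER/flox than in controls, but few differences exceeded the spread between libraries. A gene was called when edgeR's quasi-likelihood test gave an adjusted p under 0.05 over all 16017 genes tested. Against both controls 1 of 30 was called, the laminin chain Lama2, which was higher, beside 4.65% of all genes (3.03% higher and 1.62% lower). Against Mkx-flox/+ 2 of 30 were called, Lama2 and the collagen IV chain Col4a3, both higher, beside 7.27% of all genes (4.37% higher and 2.9% lower). Against Mkx-CreER/+ edgeR called 0 of 30, beside 0.00624% of all genes. In Mkx-CreER/+ against Mkx-flox/+ edgeR called 0 of 30, beside 0% of all genes. An unadjusted edgeR p under 0.05 was reached by 2 of the 30 in each of these 2 comparisons, beside 1720 and 798 of all 16017 genes. It was reached by 10 of the 30 against both controls, beside 3310 of all genes, and by 13 against Mkx-flox/+, beside 3690. Other tools called more genes. DESeq2 called 1 of 30 against both controls (9.03% of all genes) and 6 against Mkx-flox/+ (11.6%), and limma voom 9 (18.7%) and 11 (17.8%). Both called 0 of 30 against Mkx-CreER/+, where DESeq2 called 0.699% and limma voom 4.46% of all genes. In Mkx-CreER/+ against Mkx-flox/+ both called 0 of 30, beside 0.219% of all genes with DESeq2 and 0% with limma voom.

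The median log2 fold change of the 30 was 0.34 against the joint controls, where the median over all genes was 0.016. It was 0.26 against Mkx-CreER/+, beside 0.026 for all genes, and 0.32 against Mkx-flox/+, beside 0.0091. In each of these 3 comparisons, which share the Mkx-CreER/flox libraries, 24 values were above 0 and 6 below. With upper-quartile scaling the split was 23 above and 7 below against both controls and against Mkx-CreER/+. Within Mkx-CreER/flox the libraries differed in this respect. Libraries 4 and 5 each lay above the 10-library mean in 26 of 30 genes, and library 1 in 13. Among controls, library Mkx-flox/+ 4 lay above it in 25 genes, and the remaining 6 in 6 to 19.

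**Figure D2:**
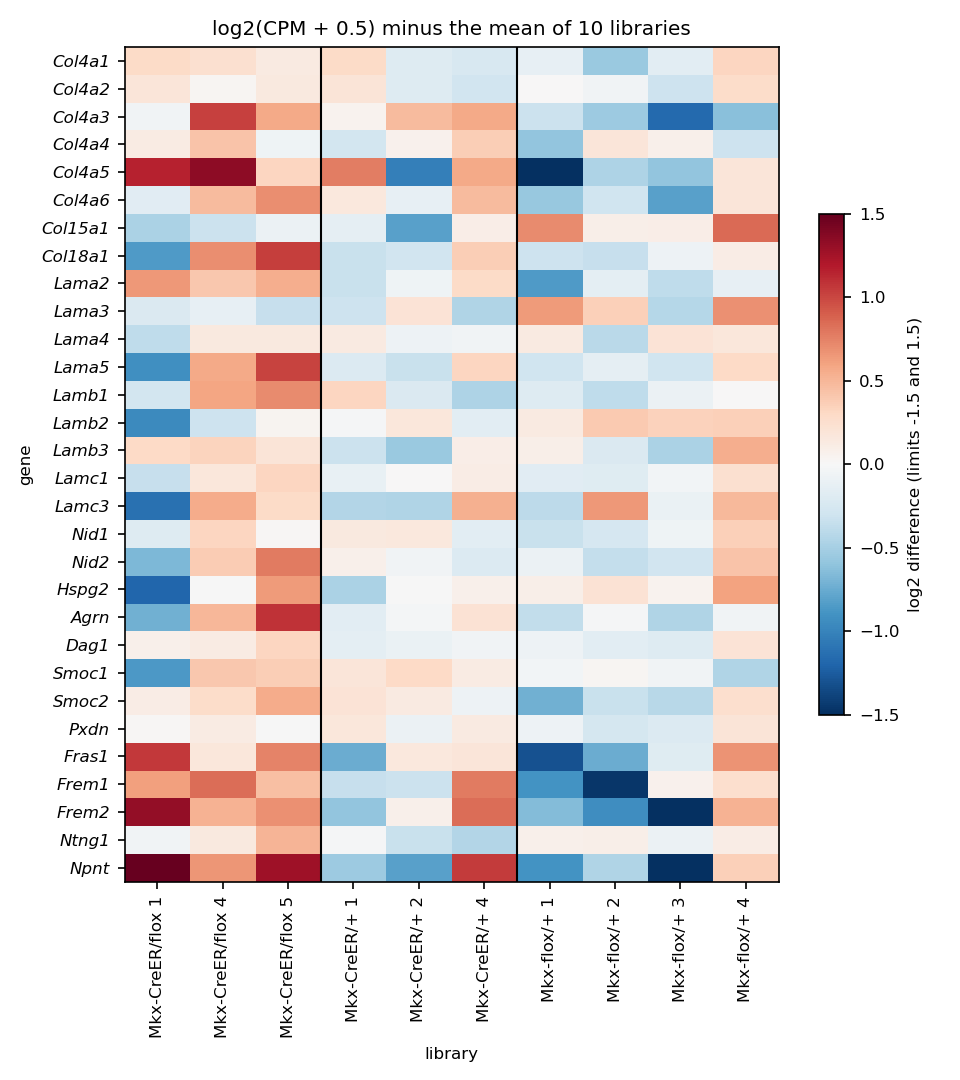
Deviation of each gene (rows) in each library (columns) from its mean over 10 libraries, as log2 of CPM plus 0.5, with red for higher and blue for lower and colours ending at 1.5. Mkx-CreER/flox 4 and 5 are mostly red, Mkx-CreER/flox 1 is divided, and Mkx-flox/+ 4 is the reddest of the controls.

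**Figure D3:**
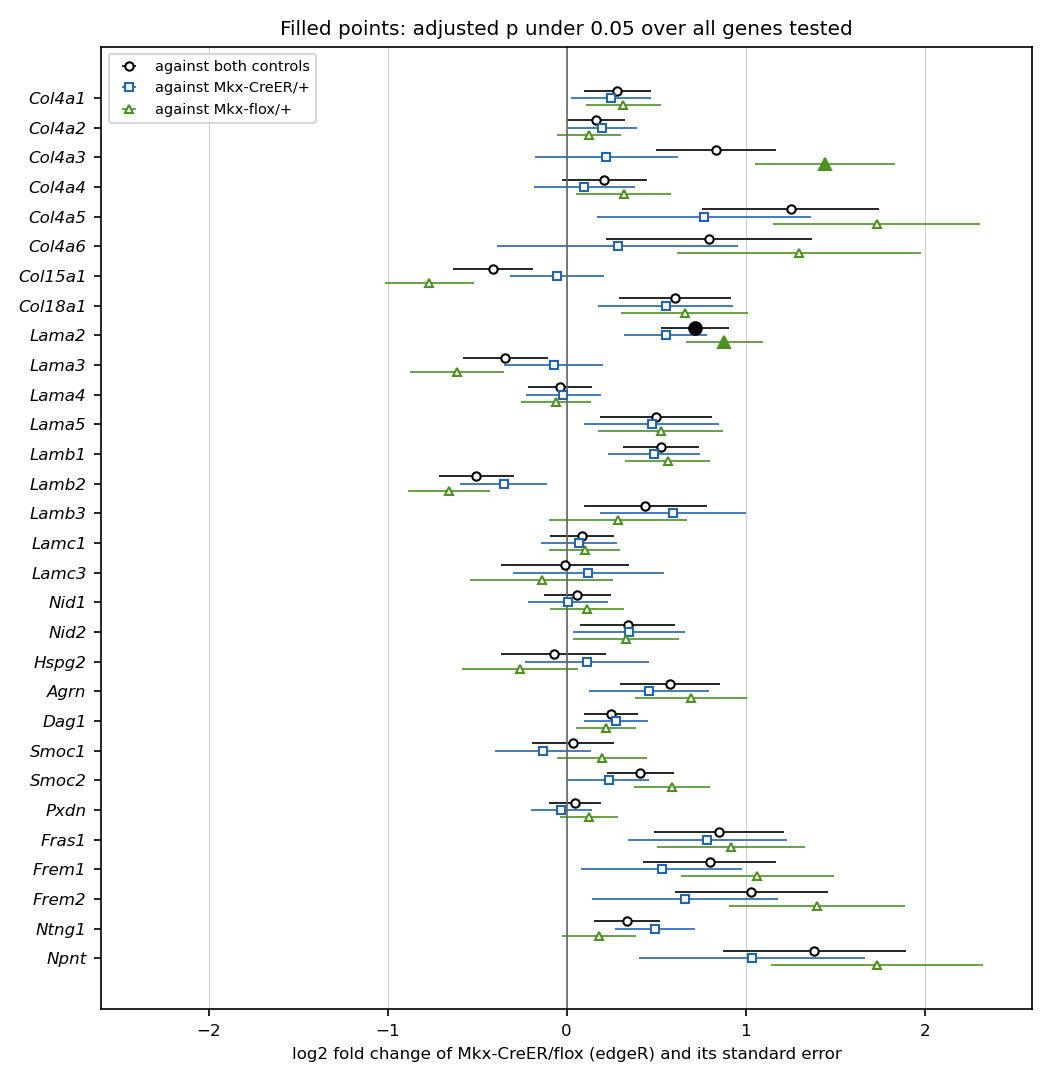
Log2 fold change of Mkx-CreER/flox with its standard error, for 30 genes, with circles for both controls jointly, squares for Mkx-CreER/+ and triangles for Mkx-flox/+. Filled points are called: Lama2 against both controls (0.72) and against Mkx-flox/+ (0.88), and Col4a3 against Mkx-flox/+ (1.45).

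Laminin alpha chains carry the sites that bind integrins and dystroglycan. Lama2, the alpha chain of muscle fibre and Schwann cell basement membranes, had 629, 529.5 and 585 CPM in Mkx-CreER/flox libraries 1, 4 and 5, against 317, 382 and 488 CPM in Mkx-CreER/+ and 222, 363, 308 and 369 CPM in Mkx-flox/+. In CPM all 3 Mkx-CreER/flox libraries lay above all 7 controls, and Lama2 was the only one of the 30 whose groups did not overlap. This depends on the scaling, as Mkx-CreER/flox 1 had a TMM factor of 0.839, which raises its CPM. In TPM, which does not use that factor, Mkx-CreER/flox 1 had 111 TPM of Lama2, below Mkx-CreER/+ 4 at 120 TPM. Of all genes 6.92% did not overlap in this way, 3.81% higher and 3.12% lower. The log2 fold change was 0.72 against both controls (SE 0.191, edgeR adjusted p = 0.0457) and 0.88 against Mkx-flox/+ (SE 0.215, edgeR adjusted p = 0.0252). Against Mkx-CreER/+ it was 0.55 (SE 0.232, edgeR adjusted p = 0.414). The call against both controls was narrow: leaving out any of Mkx-CreER/flox 1, 4 or 5, Mkx-CreER/+ 1 or 2, or Mkx-flox/+ 1, 2 or 3 ended it, with log2 fold changes of 0.63 to 0.79 and edgeR adjusted p of 0.0263 to 0.134 over all 10 omissions. The call against Mkx-flox/+ was lost without Mkx-CreER/flox 1 or 4 or Mkx-flox/+ 1 or 3, with log2 fold changes of 0.73 to 0.96 and edgeR adjusted p of 0.0224 to 0.0815. With the muscle marker score in the model the log2 fold change against both controls was 0.61 (edgeR adjusted p = 0.194), and with the endothelial score 0.76 (edgeR adjusted p = 0.0983). With a Schwann cell marker score, added after the data were seen, it was 0.85 and Lama2 stayed called (edgeR adjusted p = 0.0326). The 17 Schwann cell markers summed to 511 to 2457 CPM in Mkx-CreER/flox, 467 to 1058 CPM in Mkx-CreER/+ and 501 to 902 CPM in Mkx-flox/+, and the part of either cell type in this difference was not tested. Library 1 had the highest muscle sum of its group and the lowest Schwann sum. Its Lama2 was the highest of the group in CPM but the lowest in TPM, at 111 TPM against 133 and 148 TPM in libraries 4 and 5. Among controls, Mkx-CreER/+ 2 had a muscle sum of 83806 CPM and 382 CPM of Lama2. Library 5 had more Lama2 than library 4, with a smaller muscle sum (72737 against 79431 CPM) and a larger Schwann sum (2457 against 1401 CPM).

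Lama4, the alpha chain of vessel walls, showed no such shift. It had 159, 228 and 228 CPM in Mkx-CreER/flox, 227, 196 and 200.3 CPM in Mkx-CreER/+ and 227, 156, 239 and 232 CPM in Mkx-flox/+, and the groups overlapped throughout. Its log2 fold change against both controls was -0.038 (SE 0.177, edgeR adjusted p = 0.934). Lama5, the broadly used alpha chain of mature vessels and epithelia, had 17.7, 50.7 and 69.6 CPM in Mkx-CreER/flox, 29.5, 27.0 and 42.8 CPM in Mkx-CreER/+ and 27.5 to 42.1 CPM in Mkx-flox/+. Libraries 4 and 5 lay above every control and library 1 below every control. Lama3 did not pass either, at 20.4 to 23.9 CPM in Mkx-CreER/flox, 18.9 to 30.2 CPM in Mkx-CreER/+ and 19.3 to 42.4 CPM in Mkx-flox/+. Per length, Lama2 made up 60.9% ± 7.62 of alpha chain RNA in Mkx-CreER/flox, 51.7% ± 6.02 in Mkx-CreER/+ and 44.7% ± 7.77 in Mkx-flox/+ (SD, n = 3, 3 and 4). Lama4 made up 28.9%, 37.4% and 41.3% in the same genotypes.

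The beta chains moved apart. Lamb2, the beta chain of mature muscle, nerve and vessel laminins, had 281, 440.2 and 561 CPM in Mkx-CreER/flox, against 535, 613 and 488 CPM in Mkx-CreER/+ and 596, 714, 691 and 696 CPM in Mkx-flox/+. Its values overlapped those of Mkx-CreER/+ through library 5 but lay below all 4 of Mkx-flox/+. The log2 fold change against both controls was -0.51 (SE 0.209, edgeR adjusted p = 0.185), not called. Without Mkx-CreER/flox 5 edgeR called Lamb2 lower against Mkx-flox/+ (log2 fold change -0.92, adjusted p = 0.0289), beside 9.62% of all genes. Library 5 had the highest Lamb2 of its group, so its omission widens the gap and gives no separate support. Lamb1, the beta chain that prevails during development, had 51.5, 94.1 and 103 CPM in Mkx-CreER/flox, against 78.3, 53.6 and 45.1 CPM in Mkx-CreER/+ and 54.5, 48.0, 58.5 and 62.8 CPM in Mkx-flox/+. Libraries 4 and 5 lay above all controls and library 1 among them, and the log2 fold change was 0.53 (SE 0.213, edgeR adjusted p = 0.175). Lamb3 stayed between 1.68 and 4.20 CPM in all libraries. The gamma chain Lamc1, a partner in most laminin trimers, had 279.5, 402 and 445 CPM in Mkx-CreER/flox, 329, 359 and 385 CPM in Mkx-CreER/+ and 318, 314, 348 and 421 CPM in Mkx-flox/+. Those groups overlapped, with a log2 fold change of 0.086 (SE 0.179, edgeR adjusted p = 0.842). Lamc3, a gamma chain of nerve and vessel laminins, ranged from 5.88 to 19.8 CPM in Mkx-CreER/flox, 9.62 to 19.6 CPM in Mkx-CreER/+ and 10.03 to 21.2 CPM in Mkx-flox/+.

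**Figure D4:**
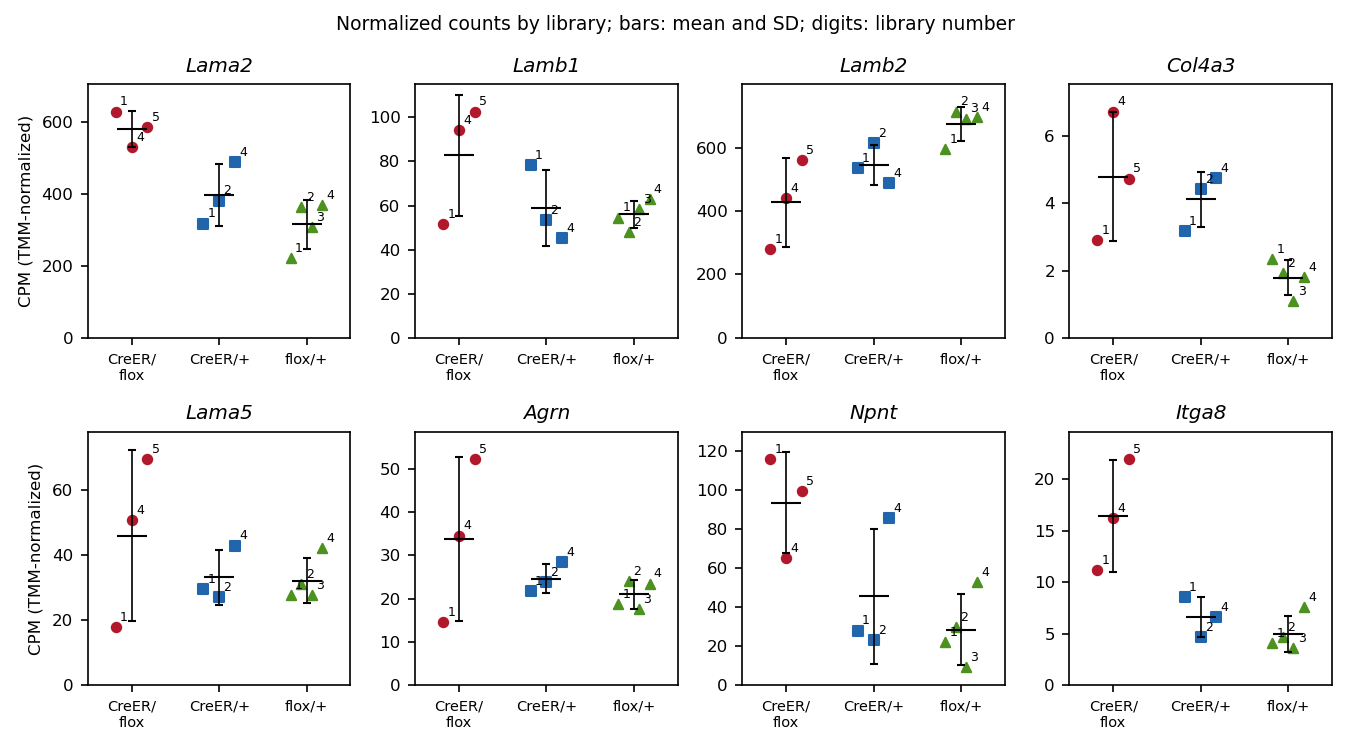
CPM of 7 basement membrane genes and of Itga8, the integrin chain that binds nephronectin, in each library (points with the library number) with mean and SD. Lama2 is above all controls in all 3 Mkx-CreER/flox libraries (529.5 to 629 CPM), while in Lamb1, Lama5 and Agrn libraries 4 and 5 are high and library 1 is not.

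Ratios of counts within a library do not depend on how libraries are scaled, and 8 such ratios were tested by exact permutation (two-sided), with p adjusted over the 8. Lamb1/Lamb2 differed most plainly. Its log2 ratio was -2.45, -2.23 and -2.45 in Mkx-CreER/flox 1, 4 and 5, against -2.77, -3.52 and -3.43 in Mkx-CreER/+ and -3.45, -3.89, -3.56 and -3.47 in Mkx-flox/+. Library 1, which stood apart in single genes, lay with its group, and no control reached the group. The difference from the 7 controls was 1.07 (exact permutation p = 0.00833, the smallest 3 libraries against 7 allow, adjusted 0.0333). In 3 of 10 omissions the adjusted p was above 0.05, at 0.111 when Mkx-CreER/flox 4 was left out, 0.0741 when Mkx-CreER/flox 5 was, and 0.0635 when Mkx-CreER/+ 2 was. Per length, Lamb1 was 10.5% ± 0.859 of beta chain RNA in Mkx-CreER/flox, 6.20% ± 1.74 in Mkx-CreER/+ and 4.85% ± 0.615 in Mkx-flox/+ (SD, n = 3, 3 and 4). The ratio differed by 0.87 from Mkx-CreER/+ alone (exact permutation p = 0.1, the smallest 3 against 3 allow) and by 1.22 from Mkx-flox/+ alone (exact permutation p = 0.0286, the smallest allowed, adjusted 0.0762).

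Lamb2 was low relative to its partner chain Lamc1, in a ratio that shares Lamb2 with the one above and so is not independent of it. The log2 Lamb2/Lamc1 ratio was 0.0061, 0.13 and 0.33 in Mkx-CreER/flox, against 0.70, 0.77 and 0.34 in Mkx-CreER/+ and 0.90, 1.18, 0.99 and 0.73 in Mkx-flox/+. The highest Mkx-CreER/flox value, in library 5, lay just under the lowest control, Mkx-CreER/+ 4. The difference from the 7 controls was -0.65 (exact permutation p = 0.00833, adjusted 0.0333), with the same adjusted p in those 3 omissions. The ratio of perlecan to agrin, Hspg2/Agrn, was 3.93, 3.87 and 3.92 in Mkx-CreER/flox, against 4.08, 4.40 and 4.24 in Mkx-CreER/+ and 4.85, 4.61, 4.90 and 5.04 in Mkx-flox/+. The 3 genotypes did not overlap in this ratio, and Mkx-CreER/+ lay between the others. Mkx-CreER/flox differed from the 7 controls by -0.68 (exact permutation p = 0.0167, adjusted 0.0444), and Mkx-CreER/+ differed from Mkx-flox/+ by -0.61 (exact permutation p = 0.0286, adjusted 0.229). Without Mkx-CreER/flox 4 the exact permutation p of Hspg2/Agrn was 0.0556, with 0.0238 to 0.0556 over all 10 omissions. Its adjusted p was above 0.05 in 9 of the 10, at 0.0635 to 0.111, and 0.0444 only without Mkx-CreER/flox 1. Lama2/Lama4 differed by 0.81 (exact permutation p = 0.05, adjusted 0.1), and Col4a1/Col4a2, Lama5/Lama4, Nid1/Nid2 and Col15a1/Col18a1 had adjusted p of 0.16 to 0.542 in the same exact tests. The marker sums given above differ between the same groups, and their part in the ratios was not tested. How often ratios of other gene pairs separate the same libraries was not examined, so these separations cannot be called particular to basement membrane genes.

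**Figure D5:**
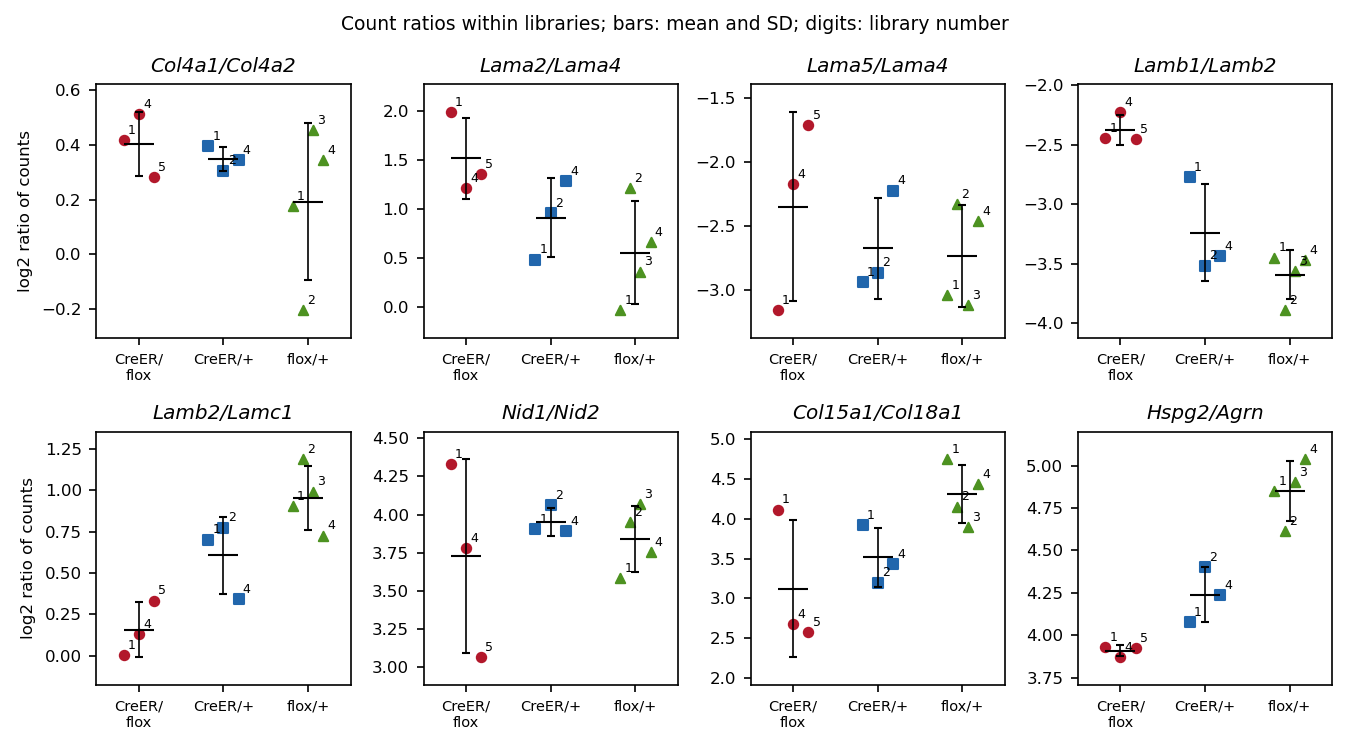
Log2 ratios of counts within each library for 8 pairs of genes, with mean and SD by genotype. In Lamb1/Lamb2 the 3 Mkx-CreER/flox libraries (-2.45 to -2.23) are all above the 7 controls, and in Lamb2/Lamc1 and Hspg2/Agrn all are below them. Ratios of other gene pairs were not examined.

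The sequence before the starts of the laminin genes whose levels or ratio moved is given to show how their promoters differ. Positions are those of RefSeq on GRCm38.p6, which is the mm10 genome, and stretches that lie in an annotated exon are left out. Lama2 is read on the minus strand of chr10:27616943-27617192, directly before the RefSeq start and inside an intron of the longer Lama2 span of GENCODE. Lamb1 is on the plus strand of chr12:31265043-31265233 and Lamb2 on the plus strand of chr9:108479612-108479735, both ending at the base before the first GENCODE exon. Capitals mark matches, on either strand, to the GC box GGGCGG, the CCAAT box CCAAT, the TATA box TATAAA, the E-box CANNTG, and TGACA. The last is the core bound by many homeodomain proteins of the TALE class. Mkx belongs to that class, but no motif specific to Mkx was searched, so TGACA does not mark an Mkx site.
Lama2: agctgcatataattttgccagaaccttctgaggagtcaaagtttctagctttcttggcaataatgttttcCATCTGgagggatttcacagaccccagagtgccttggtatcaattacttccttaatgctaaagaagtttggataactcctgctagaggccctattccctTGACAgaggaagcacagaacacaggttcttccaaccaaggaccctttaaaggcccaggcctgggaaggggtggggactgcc
Lamb1: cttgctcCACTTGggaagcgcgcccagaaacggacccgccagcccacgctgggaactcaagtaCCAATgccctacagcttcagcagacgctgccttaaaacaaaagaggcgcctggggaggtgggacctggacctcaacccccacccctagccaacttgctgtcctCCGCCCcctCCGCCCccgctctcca
Lamb2: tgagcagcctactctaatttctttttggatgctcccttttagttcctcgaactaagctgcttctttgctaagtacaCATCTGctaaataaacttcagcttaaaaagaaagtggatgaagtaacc
The Lamb1 stretch held 63.9% G and C, the Lama2 stretch 47.2% and the Lamb2 stretch 37.9%. Lamb1 had 2 GC boxes, 1 CCAAT box and 1 E-box. Of the 32851 promoter windows at the same positions, 23.1% held at least 1 GC box, 26.9% a CCAAT box and 57.5% an E-box. Lama2 had 1 E-box (66.2%) and 1 TGACA (39.95%), and Lamb2 had 1 E-box (42.9%). These are matches of letters only.

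Collagen IV is the structural collagen of all basement membranes, and its usual trimer joins alpha 1 and alpha 2 chains. Col4a1 had 246, 237 and 219.6 CPM in Mkx-CreER/flox, against 245, 176 and 169 CPM in Mkx-CreER/+ and 185, 137, 179 and 251 CPM in Mkx-flox/+. The groups overlapped, and its log2 fold change against both controls was 0.28 (SE 0.187, edgeR adjusted p = 0.426). Col4a2 ranged from 166 to 184 CPM in Mkx-CreER/flox, 133 to 186 CPM in Mkx-CreER/+ and 131 to 198 CPM in Mkx-flox/+. Per length, Col4a1 made up 51.3% of collagen IV RNA in Mkx-CreER/flox, 50.6% in Mkx-CreER/+ and 48.8% in Mkx-flox/+. Col4a2 made up 43.7%, 44.8% and 48.1% in the same genotypes.

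The minor chains were low in all libraries. Col4a3, of the alpha 3, 4, 5 trimer best known from kidney glomeruli, had 2.89, 6.73 and 4.73 CPM in Mkx-CreER/flox, against 3.18, 4.41 and 4.75 CPM in Mkx-CreER/+ and 2.34, 1.93, 1.08 and 1.80 CPM in Mkx-flox/+. Both genotypes with the Cre allele lay above all Mkx-flox/+ libraries and overlapped each other. Col4a3 rose by 1.45 on the log2 scale against Mkx-flox/+ (SE 0.391, edgeR adjusted p = 0.0376), while Mkx-CreER/+ differed from Mkx-flox/+ by 1.22 (edgeR adjusted p = 0.739). The call rests on 15 to 137 counts per library. It was lost in 8 of 10 omissions, all but those of Mkx-CreER/flox 1 and Mkx-CreER/+ 4, with log2 fold changes of 1.11 to 1.68 and edgeR adjusted p of 0.0287 to 0.184. Of the Col4a3 exon length 5.65% overlaps a gene on the other strand, C430014B12Rik, and no source used here gives the strand setting of the counting.

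Its neighbour Col4a4 starts on the other strand of chromosome 1, with 71 bases between the starts, a head-to-head arrangement that all 3 collagen IV pairs share. That gap, on the minus strand of chr1:82586850-82586920 (GRCm38.p6), is shown because 1 stretch lies before both genes. It held none of the 5 motifs searched above, so it carries no capitals.
Col4a4 and Col4a3: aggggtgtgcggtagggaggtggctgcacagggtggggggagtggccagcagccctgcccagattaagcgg
Col4a4 had 11.3, 14.1 and 9.91 CPM in Mkx-CreER/flox, against 8.51, 10.9 and 13.5 CPM in Mkx-CreER/+ and 6.72, 11.8, 10.9 and 8.27 CPM in Mkx-flox/+, overlapping throughout. Its log2 fold change against Mkx-flox/+ was 0.32 (SE 0.265, edgeR adjusted p = 0.517). The difference in fold change between Col4a3 and Col4a4 was not tested. Col4a5, which also pairs with the minor chains, had 10.1, 11.6 and 5.47 CPM in Mkx-CreER/flox, 7.62, 1.84 and 6.56 CPM in Mkx-CreER/+ and 0.487, 2.95, 2.67 and 4.91 CPM in Mkx-flox/+ (log2 fold change against both controls 1.25, SE 0.492, edgeR adjusted p = 0.169). Col4a6 had 3 to 27 counts per library.

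Collagens XV and XVIII link basement membranes to the matrix around them and release antiangiogenic fragments. Col15a1 had 127, 141 and 167 CPM in Mkx-CreER/flox, 161, 101 and 189.8 CPM in Mkx-CreER/+ and 289.9, 188, 191 and 319.7 CPM in Mkx-flox/+. The Mkx-CreER/flox libraries lay below all Mkx-flox/+ libraries and within the range of Mkx-CreER/+, and the log2 fold change against Mkx-flox/+ was -0.77 (SE 0.248, edgeR adjusted p = 0.076). Col18a1 had 7.24, 22.04 and 28.0 CPM in Mkx-CreER/flox, 10.6 to 17.6 CPM in Mkx-CreER/+ and 10.4 to 14.6 CPM in Mkx-flox/+. As with Lama5, library 1 was the lowest of all 10 and libraries 4 and 5 the highest.

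Nidogens bridge the laminin and collagen IV networks, and Nid1 was the main one, at 279, 401 and 324 CPM in Mkx-CreER/flox, 353, 358 and 288 CPM in Mkx-CreER/+ and 253, 268, 307 and 409 CPM in Mkx-flox/+. The groups overlapped, with a log2 fold change against both controls of 0.060 (SE 0.188, edgeR adjusted p = 0.9). Nid2 had 13.8 to 38.7 CPM in Mkx-CreER/flox, 19.3 to 23.5 CPM in Mkx-CreER/+ and 17.3 to 30.2 CPM in Mkx-flox/+. Hspg2, which encodes perlecan, had 223, 506 and 795 CPM in Mkx-CreER/flox, against 367, 506 and 536 CPM in Mkx-CreER/+ and 541, 592, 529 and 775 CPM in Mkx-flox/+. Its Mkx-CreER/flox libraries held both the lowest and the highest value of all 10. Agrn, which encodes agrin, known for clustering acetylcholine receptors at the neuromuscular junction, had 14.6, 34.6 and 52.3 CPM in Mkx-CreER/flox, 21.7, 23.9 and 28.4 CPM in Mkx-CreER/+ and 18.7, 24.1, 17.6 and 23.5 CPM in Mkx-flox/+. Its log2 fold change against both controls was 0.58 (SE 0.279, edgeR adjusted p = 0.258), and 0.91 without Mkx-CreER/flox 1 (edgeR adjusted p = 0.0333).

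Leaving out Mkx-CreER/flox 1 ended the Lama2 call and changed which other genes were called. Against both controls Agrn and Col18a1 (log2 fold change 0.97, edgeR adjusted p = 0.0477) then passed, beside 1.29% of all genes. Against Mkx-flox/+ Agrn, Col18a1, Lama5 and Lamb1 passed beside Col4a3, all higher, with log2 fold changes of 1.03, 1.02, 0.89 and 0.79 for the 4 added. Of all genes 3.83% were called in this comparison. Library 1 was the lowest of its group in the 4 added genes, so its omission raises their group mean and gives no separate support. Dag1, whose product dystroglycan is the laminin and agrin receptor of muscle and Schwann cells, had 281, 291 and 336 CPM in Mkx-CreER/flox, 242, 250.1 and 258 CPM in Mkx-CreER/+ and 253, 240.5, 234 and 309.9 CPM in Mkx-flox/+. Only Mkx-flox/+ 4 among the 7 controls lay above the lowest Mkx-CreER/flox library, and the log2 fold change was 0.25 (SE 0.15, edgeR adjusted p = 0.377).

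SMOC proteins are calcium-binding matrix proteins related to SPARC, and Smoc1 was the more abundant per length over the 10 libraries, at 53.5 TPM against 46.7 TPM for Smoc2. It had 26.1, 63.2 and 61.7 CPM in Mkx-CreER/flox, 54.3, 59.0 and 52.2 CPM in Mkx-CreER/+ and 46.2, 48.7, 46.0 and 34.8 CPM in Mkx-flox/+, with library 1 the lowest of all. Smoc2 ranged from 91.2 to 124 CPM in Mkx-CreER/flox, 80.0 to 96.8 CPM in Mkx-CreER/+ and 50.8 to 101 CPM in Mkx-flox/+. Pxdn, the peroxidase that cross-links collagen IV by sulfilimine bonds, had the smallest standard error of the 30. It had 87.7, 94.4 and 85.8 CPM in Mkx-CreER/flox, 97.1, 81.3 and 94.8 CPM in Mkx-CreER/+ and 82.1, 71.7, 74.8 and 99.0 CPM in Mkx-flox/+ (log2 fold change 0.048, SE 0.145, edgeR adjusted p = 0.896).

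The Fraser complex, made of Fras1, Frem1 and Frem2, anchors epithelial basement membranes to the tissue beneath, and it binds nephronectin, the ligand of integrin alpha 8 beta 1. All 4 genes had higher means in Mkx-CreER/flox, and none was called. Npnt, which encodes nephronectin, had 116, 64.9 and 99.4 CPM in Mkx-CreER/flox, against 27.9, 23.0 and 85.3 CPM in Mkx-CreER/+ and 21.8, 29.8, 9.04 and 52.5 CPM in Mkx-flox/+. Library Mkx-CreER/+ 4 overlapped the Mkx-CreER/flox range, and the log2 fold change was 1.38 (SE 0.51, edgeR adjusted p = 0.163). Without Mkx-CreER/+ 4 edgeR called Npnt higher against both controls (log2 fold change 1.78, adjusted p = 0.0331) and against Mkx-flox/+ (1.71, adjusted p = 0.0484). Of all genes 6.77% and 7.31% were called in that fit. The library left out was the highest control for Npnt, so the fit gives no separate support for this gene. Fras1 had 93.7, 50.4 and 75.0 CPM in Mkx-CreER/flox, 26.4, 49.8 and 50.5 CPM in Mkx-CreER/+ and 17.7, 26.4, 39.4 and 71.2 CPM in Mkx-flox/+.

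Mkx-CreER/+ 4 and Mkx-flox/+ 4 were the controls nearest to the Mkx-CreER/flox values of Fras1, Frem2 and Npnt. Frem2 ranged from 29.9 to 52.2 CPM in Mkx-CreER/flox, 13.5 to 37.5 CPM in Mkx-CreER/+ and 5.63 to 29.8 CPM in Mkx-flox/+. Frem1 ranged from 8.21 to 10.9 CPM in Mkx-CreER/flox, 4.51 to 10.4 CPM in Mkx-CreER/+ and 1.82 to 7.07 CPM in Mkx-flox/+. Without Mkx-flox/+ 4, edgeR called Fras1 (log2 fold change 1.07, adjusted p = 0.0402) and Frem2 (1.32, adjusted p = 0.0322) higher against both controls. Against Mkx-flox/+ it then called Fras1, Frem2, Npnt and Smoc2 higher, by 0.80 to 2.21 on the log2 scale. Of all genes 4.8% were called against both controls and 6.32% against Mkx-flox/+ in that fit. Mkx-flox/+ 4 held the highest Mkx-flox/+ value of each of these genes, so its omission gives no separate support for them. Ntng1, a netrin-like protein attached to neuronal membranes, had 16.2 to 24.3 CPM in Mkx-CreER/flox, 12.2 to 16.6 CPM in Mkx-CreER/+ and 15.7 to 18.2 CPM in Mkx-flox/+.

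Itga8, the alpha chain of the nephronectin receptor, was called where its ligand was not. It had 11.1, 16.2 and 21.96 CPM in Mkx-CreER/flox, against 8.51, 4.62 and 6.56 CPM in Mkx-CreER/+ and 4.09, 4.66, 3.58 and 7.55 CPM in Mkx-flox/+, with no overlap. It rose by 1.53 on the log2 scale against both controls (SE 0.279, edgeR adjusted p = 0.0167) and by 1.74 against Mkx-flox/+ (SE 0.327, edgeR adjusted p = 0.0102). Without Mkx-CreER/flox 4 or without Mkx-CreER/+ 2 the call against both controls was lost, with edgeR adjusted p of 0.0538 and 0.0515. With the endothelial marker score in the model its log2 fold change was 0.82 (edgeR adjusted p = 0.142). Integrin alpha 8 is also made by vascular smooth muscle and mural cells, whose 13 markers summed to 2135 to 2522 CPM in Mkx-CreER/flox, 1316 to 1406 CPM in Mkx-CreER/+ and 1014 to 1457 CPM in Mkx-flox/+. The 15 endothelial markers summed to 884 to 1146 CPM, 762 to 891 CPM and 603 to 832 CPM in the same genotypes, and the part of vessel cells in these differences was not tested.

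Of 28 genes for receptors and their partners, 6 rose and 1 fell against both controls, and 8 rose and 2 fell against Mkx-flox/+. The shares of all genes were 3.03% higher and 1.62% lower against both controls, and 4.37% and 2.9% against Mkx-flox/+. Dtna and Dmd, which encode dystrobrevin alpha and dystrophin of the complex behind dystroglycan, rose by 1.49 (SE 0.297, edgeR adjusted p = 0.0224) and 1.21 (SE 0.252, edgeR adjusted p = 0.0239) against both controls. Dmd had 477, 235 and 248 CPM in Mkx-CreER/flox, against 109, 144 and 240.3 CPM in Mkx-CreER/+ and 94.8, 106, 120.3 and 143 CPM in Mkx-flox/+, and library 1, with the most muscle marker RNA, was far above the rest. Itga2, a collagen receptor chain, had 43.2, 39.0 and 44.7 CPM in Mkx-CreER/flox, against 54.1, 59.1 and 65.2 CPM in Mkx-CreER/+ and 103, 138, 82.7 and 97.6 CPM in Mkx-flox/+. It fell by 0.90 against both controls (SE 0.173, edgeR adjusted p = 0.0198) and by 1.32 against Mkx-flox/+ (SE 0.189, edgeR adjusted p = 0.00364). Sdc1, a heparan sulfate proteoglycan of the cell surface, fell by 1.07 against Mkx-flox/+ (SE 0.224, edgeR adjusted p = 0.0137).

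Of 15 other basement membrane genes tested, 1 rose and 1 fell against both controls, where 4.65% of all genes were called, and 1 rose and 3 fell against Mkx-flox/+, where 7.27% were. Hmcn1, which encodes hemicentin, a large matrix protein that couples adjoining basement membranes, had 37.0, 37.0 and 54.0 CPM in Mkx-CreER/flox, above all controls at 21.9, 27.6 and 29.8 CPM in Mkx-CreER/+ and 22.4, 23.9, 22.1 and 26.0 CPM in Mkx-flox/+ (log2 fold change 0.77, SE 0.171, edgeR adjusted p = 0.0268). Sparc, a collagen-binding protein, had 3816, 3659 and 4052 CPM in Mkx-CreER/flox, against 7392, 6070.1 and 5263 CPM in Mkx-CreER/+ and 14867, 13285, 7966 and 23227 CPM in Mkx-flox/+. It fell by 1.32 against both controls (SE 0.309, edgeR adjusted p = 0.0306), and Fbln2 and Ntn4, matrix partners of laminins, fell by 1.09 and 0.79 against Mkx-flox/+.

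Of 14 genes that hydroxylate, fold or cross-link collagen IV and other collagens, 2 fell against both controls and 5 against Mkx-flox/+, beside 1.62% and 2.9% of all genes, and none rose. P4ha1, a prolyl hydroxylase subunit, had 222, 184 and 191 CPM in Mkx-CreER/flox, against 339.8, 313 and 281 CPM in Mkx-CreER/+ and 762, 298, 459 and 737 CPM in Mkx-flox/+. It fell by 1.07 against both controls (SE 0.259, edgeR adjusted p = 0.0334), and the lysyl hydroxylase Plod3 fell by 0.68 (SE 0.183, edgeR adjusted p = 0.0472). Against Mkx-flox/+ Loxl2, a cross-linking oxidase, fell by 1.53 and Plod3 by 0.84, and P4ha1 (edgeR adjusted p = 0.0102) and Plod1, another lysyl hydroxylase (edgeR adjusted p = 0.0134), also fell. These enzymes also serve the fibrillar collagens of tendon. Of 19 genes for proteins that remodel matrix, 3 fell against both controls and 8 against Mkx-flox/+, beside the same shares of all genes, and none rose. The protease Htra1 fell by 1.19 (SE 0.225, edgeR adjusted p = 0.0185), the macrophage-rich protease Ctss by 1.03 (SE 0.232, edgeR adjusted p = 0.0288) and the inhibitor Timp2 by 0.99 (SE 0.231, edgeR adjusted p = 0.0306) against both controls. Against Mkx-flox/+ Htra1 fell by 1.66, Timp2 by 1.27, Ctss by 1.03 and Plat, a plasminogen activator, by 0.78. The 10 macrophage markers were all called lower too against both controls and against Mkx-flox/+, beside 1.62% and 2.9% of all genes. Against Mkx-CreER/+ all 10 had negative log2 fold changes and 0 were called. These markers summed to 718 to 822 CPM in Mkx-CreER/flox, 1066 to 2640 CPM in Mkx-CreER/+ and 1572 to 2615 CPM in Mkx-flox/+. Their part in the Ctss difference was not tested.

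These 4 lists differ in how far their calls depend on single libraries. Of their 14 calls against both controls, 0 held in all 10 omissions. Without Mkx-CreER/+ 2 all 14 were lost, and without Mkx-CreER/flox 4 all but Dmd. Calls over all genes fell in these fits too, from 4.65% to 0.406% and 0.39%. The number of libraries whose omission ended a call ran from 2 for Itga2 and Itga8 to 9 for Itga6, a laminin receptor chain. Of the same 14, only Htra1 held with the muscle marker score in the model, where 0.593% of all genes were called. Of the 27 calls against Mkx-flox/+, 10 held in all 10 omissions: Dmd, Dtna, Itga8, Itga2, Sdc1, Sparc, P4ha1, Plod1, Htra1 and Timp2. With the muscle score 6 of the 27 held: Htra1, Itga2, Itga8, Loxl2, P4ha1 and Sparc. That fit called 1.17% of all genes against Mkx-flox/+, beside 7.27% without the score. In Mkx-CreER/flox against Mkx-CreER/+ the smallest edgeR adjusted p in these lists was 0.328, for Itga8 (log2 fold change 1.33) and Ctss (-1.02).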

How the data were processed

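Counts per Ensembl gene for 10 libraries were deposited by the authors as 1 table of raw counts. Per the submitters' processing notes, fastp, STAR and mm10 were used. Versions, the counter, strand handling and the handling of multi-mapped reads were not given in the sources used here. Columns of Mkx-flox/+ were assigned to samples through their numbers. Mkx-CreER/+ (1, 2, 4) and Mkx-CreER/flox (1, 4, 5) columns could be assigned to a genotype but not to a sample, because the labels number them otherwise. Symbols, positions and merged exon lengths came from GENCODE vM21, which named 32158 of the 32285 identifiers. Promoter windows came from RefSeq, where 21 of the 31 genes had one.

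Analysis used R 4.3.3, edgeR 4.0.16 and limma 3.58.1. Low genes were removed by filterByExpr with genotype as the group. After TMM scaling, 1 robust quasi-likelihood model with a term per genotype was fitted to all 10 libraries. Both controls were weighted equally in the joint comparison. P-values were adjusted by Benjamini-Hochberg over 16017 genes. A count of 3 equals 0.126 to 0.36 CPM, for counting error only. Ratios were log2 of counts plus 1. Steps were tested on simulated data. The alternatives were DESeq2 1.42.0, limma voom, other scalings and filters, marker scores as covariates, only the groups compared, and leaving out each library. The Schwann score and a block on the column number were added after the data were seen. The genes and lists were chosen with earlier results of these data known.

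All 31 genes are accounted for. Values in every library are given at least for genes called and for the gene of highest TPM in each role. From each other list, called genes were named, up to 4 by smallest p in each comparison. A further gene list is not reported here. Npnt, Itga8 and genes called only in omissions were described further after their values were seen.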

Additional observations from a re-analysis of the deposited data

Results flagged for a closer look

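In the group of 4 Mkx-flox/+ libraries, 2 of 30 genes had a library far from the other 3 by Dixon's test, where chance gives about 1 in 20. Lama4 had 156 CPM in Mkx-flox/+ 2, with the next at 227 CPM and the highest at 239 CPM. Ntng1 had 15.7 CPM in Mkx-flox/+ 3, with the next at 17.8 CPM and the highest at 18.2 CPM. Groups of 3 were not examined in this way.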

How the results depend on the processing

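The labels do not say what the column numbers stand for, and they differ from the label numbers in Mkx-CreER/+ and Mkx-CreER/flox. A replicate block on the column number was therefore added after the data were seen. With it edgeR called 0 genes of 30 against both controls (0.743% of all genes) and 1, Col15a1, lower, against Mkx-flox/+ (3.35%). Deviations from the group means correlated above 0.1 in 1 of 7 pairs with the same number, with a median of 0.034. In pairs with different numbers they did so in 1 of 26, with a median of -0.014. The numbers were not taken to pair the libraries, although 7 pairs are too few to exclude a pairing. Without a block, 1 gene was called against both controls (4.65% of all genes). The count was 9 with limma voom (18.7%), 0 with upper-quartile scaling (4.81%), 0 with the muscle score (0.593%) and 2 with the Schwann score (9.53%). It was 0 to 3 when libraries were left out, where 0.39% to 6.77% of all genes were called. Against Mkx-flox/+, where 2 were called (7.27%), it was 6 with DESeq2 (11.6%), 11 with limma voom (17.8%), 1 with only the groups compared (5.83%), 0 with the muscle score (1.17%) and 1 with the endothelial score (7.4%). It was 0 to 5 when libraries were left out, where 2.86% to 9.62% of all genes were called. The gene called with the endothelial score was Lamb2, lower, in both comparisons. With the Schwann score the 2 called against both controls were Lama2, higher, and Lamb2, lower. With only the groups compared, fewer samples enter the fit, and no separate fit exists for both controls. In Mkx-CreER/flox against Mkx-CreER/+ and in Mkx-CreER/+ against Mkx-flox/+ the count was 0 in every alternative run. Of the 8 ratios, 3 had an exact permutation p under 0.05, and 2 to 5 did when a library was left out (5 without Mkx-CreER/flox 1). Lamb1/Lamb2 stayed at 0.99 to 1.18 and Lamb2/Lamc1 at -0.74 to -0.57 over these omissions. No direction of Lama2, Col4a3 or the 3 ratios was reversed in any alternative run. The cause of these changes was not tested. Low counts limit Col4a6 and Col4a3 most.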
